A study of Mus musculus with 92 samples.

Results

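The 77 genes described here code for proteins of the mitochondrial ribosome. They are the symbols that start with Mrpl or Mrps followed by a digit, and the rule further asked that 25% or more of the cells of a sort gate have a value above 0. The expression table held 77 such symbols among 23956, and 77 of them passed, so none was lost to the detection rule. By their known place in the ribosome 50 belong to the large subunit and 26 to the small subunit, with Mrps30 and Mrps18a counted in the large one. Mrps36 was left unplaced, since its product is known as a subunit of the oxoglutarate dehydrogenase complex.

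The mitochondrial ribosome translates the few messages of the mitochondrial genome, which code for membrane subunits of oxidative phosphorylation. Its proteins are coded in the nucleus, made on cytosolic ribosomes and imported. Besides the unplaced Mrps36, 46 of the members have a bacterial counterpart and 30 lack one. Neutrophils are known to rely on glycolysis and to keep few respiring mitochondria, whereas their progenitors divide and build both kinds of ribosome.

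The data are transcriptomes of 92 single bone marrow cells from C57BL/6 mice homozygous for a premature stop in Gfi1 (genotype Gfi1-R412X/R412X), which every cell shared. Marrow of crushed hindlimbs was enriched for CD117, sorted, and lysed on a Fluidigm C1 chip, giving 45 cells of the gate named GMP and 47 of the gate named CD11b+ GMP-P. The sources used here give neither the age nor the number of the mice, and no wild type cells were analysed here. The labels give all cells of a gate 1 code with a date, and the codes of the gates differ, so gate, date and animals cannot be told apart. Each gate was therefore 1 sample whose cells are not replicates, so no test was made, no p-value is given, and ± SD is the spread of cells.

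The median number of genes with a value above 0, called detected, was 5611 per GMP cell and 4143 per CD11b+ GMP-P cell. Levels are in TPM, transcript abundances per length scaled to a fixed total in each cell, which keep no read depth. All 8 neutrophil granule markers were present, with a median summed level of 50050 TPM in GMP cells and 86573 TPM in CD11b+ GMP-P cells. Monocyte markers summed to a median of 536 TPM in GMP cells and 1.42 TPM in CD11b+ GMP-P cells. Markers of other cell types, summed per list, were seen in part of the cells. The B cell list was above 0 in 24 GMP cells (highest 1039 TPM, 6 cells at 100 TPM or more) and 8 CD11b+ GMP-P cells (highest 350 TPM, 3 cells), with Cd79a, Ms4a1 and Pax5 at 0 in every cell. The basophil and mast cell list reached 100 TPM in 11 GMP cells (highest 11016) and 3 CD11b+ GMP-P cells (highest 1652). The T cell list was above 0 in 5 and 8 cells (highest 389 and 48.9 TPM), with Cd3e and Cd3g at 0 in every cell. The erythroid list was above 0 in 4 and 2 cells (highest 1044 and 11.3 TPM), and the megakaryocyte list in 6 and 10 cells (highest 51.6 and 105 TPM), with Pf4 and Vwf at 0 in every cell. Their part in the results was not tested.

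Promoters of 4 members are printed because these are the members with the highest mean TPM that hold a motif of a factor known for genes of mitochondrial proteins. Each window runs from 250 bases before to 50 bases after the RefSeq start on build GRCm38.p6, 5′ to 3′ on the strand of the gene, with the motif in capitals. The window of Mrpl33, at chr5:31613701-31614000 on the + strand, holds the ETS motif bound by GABPA, starting 3 bases before the start. That of Mrpl42, at chr10:95501900-95502199 on the - strand, holds the YY1 motif 27 bases after the start. That of Mrpl18, at chr17:12916042-12916341 on the - strand, holds the ETS motif 240 bases before the start. That of Mrps18c, at chr5:100798509-100798808 on the + strand, holds the ETS motif in reverse orientation 156 bases before the start.
Mrpl33 promoter: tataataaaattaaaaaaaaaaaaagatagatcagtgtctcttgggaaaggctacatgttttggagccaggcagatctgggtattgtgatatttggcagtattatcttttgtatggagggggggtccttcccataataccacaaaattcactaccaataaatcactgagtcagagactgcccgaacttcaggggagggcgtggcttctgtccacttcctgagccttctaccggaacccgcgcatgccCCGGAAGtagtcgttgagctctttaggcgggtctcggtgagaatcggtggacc
Mrpl42 promoter: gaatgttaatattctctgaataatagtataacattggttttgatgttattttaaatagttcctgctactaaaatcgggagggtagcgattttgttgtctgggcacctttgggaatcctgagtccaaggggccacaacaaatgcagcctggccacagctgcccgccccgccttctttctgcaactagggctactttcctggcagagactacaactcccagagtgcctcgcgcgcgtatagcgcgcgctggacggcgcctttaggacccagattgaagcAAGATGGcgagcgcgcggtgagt
Mrpl18 promoter: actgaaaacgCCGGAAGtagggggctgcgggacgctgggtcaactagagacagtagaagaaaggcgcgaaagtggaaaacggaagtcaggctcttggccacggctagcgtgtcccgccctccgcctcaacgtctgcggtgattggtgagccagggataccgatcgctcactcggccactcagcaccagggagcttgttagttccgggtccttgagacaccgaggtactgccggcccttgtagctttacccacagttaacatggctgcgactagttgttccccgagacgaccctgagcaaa
Mrps18c promoter: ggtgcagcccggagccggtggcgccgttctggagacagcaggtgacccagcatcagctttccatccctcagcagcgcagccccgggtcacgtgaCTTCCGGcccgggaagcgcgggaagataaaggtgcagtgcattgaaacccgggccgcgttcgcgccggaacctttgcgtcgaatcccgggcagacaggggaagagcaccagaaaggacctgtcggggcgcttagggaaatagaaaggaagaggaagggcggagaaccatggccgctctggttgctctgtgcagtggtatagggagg

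RefSeq held promoters for 68 of the 77 members, 74 windows in all. On either strand, the ETS motif CCGGAAG stood in 25 of the 74 windows (33.8%), against 20.9% of the 7528 promoters of genes compared between the gates and 8.86% of 32817 promoters of the same length. The YY1 motif AAGATGG stood in 13 windows (17.6%), against 7.97% and 6.34%. The NRF1 motif, an inverted repeat rich in G and C, stood in 13 windows as well (17.6%), against 11.5% and 4.59%. At least 1 of the 3 motifs was present in 42 windows (56.8%), against 35.3% of the promoters of genes compared. The ends of the motifs can share letters, but matches to different motifs shared bases in 0 of the 74 windows. The share was 52.1% for cytosolic ribosomal proteins and 54.3% for oxidative phosphorylation genes, close to that of the members. The E-box CACGTG (9.46%, against 10.6%) and the TATA box TATAAA (6.76%, against 7.01%) were about as frequent as among the genes compared. Members with and without a motif had like differences between the gates: medians of -1.76 and -1.86 on the log2 scale for ETS, -1.996 and -1.81 for YY1, and -1.71 and -1.82 for NRF1. A match is a run of letters and not a shown binding site.

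Mitochondrial ribosomal protein genes were lower in CD11b+ GMP-P than in GMP cells across both subunits. The difference was taken between the means of log2(TPM + 1), a scale that understates the change of low genes. All 77 members lay below 0, 70 lay at least 1 lower, 0 lay at least 1 higher, and the median was -1.81 (range -4.05 to -0.79). The wider background was the 7803 genes compared, those that met the same 25% rule in either gate. Of these 6478 lay below 0, 39% lay at least 1 lower and 2.72% at least 1 higher, with a median of -0.74. Genes of like level are the closer background: of the 1480 whose mean lay between the members' quartiles, 61% lay at least 1 lower and 4.19% at least 1 higher, with a median of -1.32. Of the large subunit 45 of 50 members lay at least 1 lower (median -1.85), and of the small subunit 24 of 26 (median -1.64). Members with a bacterial counterpart (44 of 46, median -1.82) and those without one (25 of 30, median -1.78) had medians close to each other.

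Mrpl12, the stalk protein through which the large subunit recruits translation factors, had the largest difference of the 77. In GMP cells its lowest, median and highest levels were 0, 342 and 1079 TPM, with 43 of 45 cells above 0 (95.6%, exact Clopper-Pearson 95% interval 84.9 to 99.5). In CD11b+ GMP-P cells they were 0, 11.8 and 726 TPM, with 28 of 47 cells above 0 (59.6%, 44.3 to 73.6). The ranges overlapped, and the means of 7.72 ± 2.28 and 3.66 ± 3.59 differed by -4.05 on the log2 scale. By state name, its mean lay between 356 and 486 TPM in the Mono, MP, cMoP, Gran-1 and Multi-Lin cells of GMP and was 384 TPM in the Gran-1 cells of CD11b+ GMP-P. It was 133 TPM in the 2 Gran-2 cells of GMP. In the rest of CD11b+ GMP-P it was 155 TPM in Gran-2, 28.02 TPM in Myelo-2 and 7.17 TPM in Myelo-1 cells. There it was 75.3 TPM in the 1 Multi-Lin and 20.98 TPM in the 1 Mono cell, and listed at 0 in the 3 Myelo-4 cells. On the log2 scale the mean was 5.50 in the Multi-Lin and 5.34 in the Gran-2 cells of GMP. The Mono, MP, cMoP and Gran-1 cells of GMP had log2 means of 8.08 to 8.32.

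Mrps10, a small subunit protein, was above 0 in 35 GMP cells (median 40.96 TPM, highest 557) and in 12 CD11b+ GMP-P cells (median 0, highest 895). Its difference was -3.37, and the single highest cell of both gates was a CD11b+ GMP-P cell. Mrpl36, a short protein with a bacterial counterpart, had a median of 248 TPM in GMP (42 cells above 0) and 13.6 TPM in CD11b+ GMP-P (29 cells), a difference of -3.28. Mrpl22, which lines the exit tunnel for the new protein chain, differed by -3.16. Mrpl2, near the centre that joins amino acids, differed by -3.10, Mrpl28 by -3.07, Mrpl54 by -3.01 and Mrpl52 by -2.89. Of these 8 lowest genes, 7 belong to the large subunit, and 6 have a bacterial counterpart.

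The 7 members within 1 of no difference were Mrpl53, Mrps18c, Mrpl40, Mrpl39, Mrps6, Mrps30 and Mrpl45, with values from -0.99 to -0.79. Mrps6 and Mrps30 were rarely seen at all, with medians of 0 TPM in both gates and 16 and 18 GMP cells above 0. Mrps18c was an abundant gene, with a median of 312 TPM for GMP, 158 TPM for CD11b+ GMP-P, and 41 cells above 0 in each gate. Mrpl45, which holds the ribosome to the inner membrane, had the smallest difference (-0.79), with 33 GMP and 29 CD11b+ GMP-P cells above 0.

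The 3 Mrps18 paralogs, which go back to 1 bacterial protein, were unlike each other. Mrps18c, the form in the bacterial position of the small subunit, differed by -0.93. Mrps18b, another small subunit protein, had medians of 46.9 TPM for GMP and 0 for CD11b+ GMP-P and differed by -2.50. Mrps18a, placed in the large subunit, had medians of 56.8 and 0.90 TPM and differed by -1.79, yet its mean was 137 TPM in GMP and 144 TPM in CD11b+ GMP-P, so its direction depends on whether means are taken on the log or the linear scale. Paralogs can share reads, and how these were divided was not tested. The unplaced Mrps36 differed by -2.40.

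Mrpl33, a small protein of the large subunit, was the most abundant member per length. Its levels in GMP cells were 63.6, 873 and 2040 TPM (lowest, median and highest) with 45 of 45 cells above 0. In CD11b+ GMP-P cells they were 0, 471 and 2943 TPM with 45 of 47 cells above 0. The ranges overlapped nearly in full, the difference was -1.20, and the highest single cell was in CD11b+ GMP-P. Of the other most abundant members besides Mrps18c, Mrpl42 had medians of 482 and 298 TPM (difference -2.49) and Mrpl18 had 492 and 231 TPM (difference -1.82). Mrps21 (270 and 149 TPM) differed by -1.71 and Mrpl20 (411.6 and 69.9 TPM) by -2.75.

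**Figure D1:**
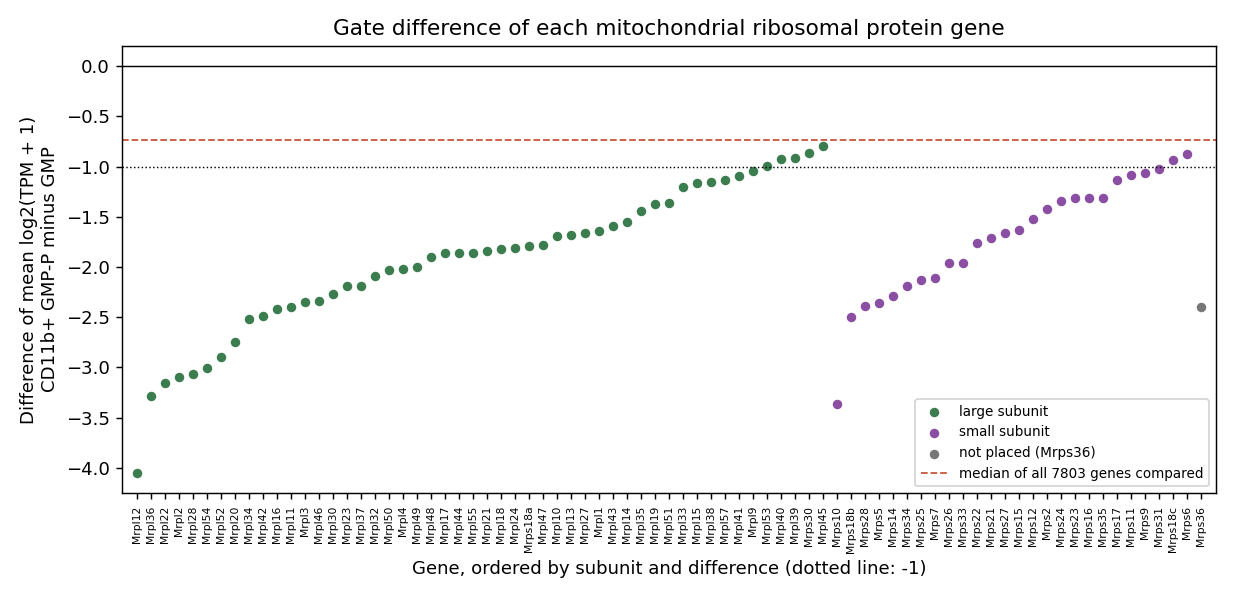
Difference of the mean log2(TPM + 1) between the gates, CD11b+ GMP-P minus GMP, for each of the 77 genes (points), ordered within the large subunit, the small subunit and the unplaced Mrps36. The dotted line is the size rule of -1 and the dashed line the median of all genes compared (-0.74). All points lie below 0, from Mrpl12 at -4.05 to Mrpl45 at -0.79, as do 6478 of the 7803 genes compared.

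Lists of other nuclear genes for mitochondrial gene expression had medians nearer to 0 than the members, but they were not matched to them for level. Of all genes compared 39% lay at least 1 lower, and of genes at the level of the members 61%. The 6 mitochondrial ribosomal proteins that carry another symbol were all at least 1 lower, with a median of -1.48, among them Gadd45gip1 (-2.64), Chchd1 (-2.19) and Aurkaip1 (-1.50). Of 10 translation factors compared 7 lay at least 1 lower (median -1.31), with Tufm, which brings charged tRNA to the ribosome, at -2.29, its exchange factor Tsfm at -2.10 and the initiation factor Mtif2 at -1.43. Of 14 genes of mitochondrial transcription and mRNA stability 9 lay at least 1 lower (median -1.26). Slirp, which stabilises the messages, was at -2.90, the single-strand binding protein Ssbp1 at -2.65 and Trmt10c, of mitochondrial tRNA processing, at -2.11, while the packaging factor Tfam and the polymerase Polrmt were each at -0.79. Of 16 assembly genes 7 lay at least 1 lower (43.8%, near the share of all genes, median -0.92). Mtg1 was at -2.21, Tbrg4 at -2.03 and Rpusd4 at -1.52. Of 13 mitochondrial aminoacyl-tRNA synthetases 5 did (38.5%, median -0.77, both close to those of all genes), with Tars2 at -2.67 and Fars2 at -1.75.

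Of 7 transcription regulators compared 4 lay at least 1 lower (57.1%, against 39% of all genes compared, median -1.02). Myc, which drives ribosome production, had means of 6.43 ± 2.72 (GMP) and 2.12 ± 2.94 (CD11b+ GMP-P), a difference of -4.31. Gabpa and its partner Gabpb1 were at -1.28 and -1.07, Yy1 at -1.02 and Nrf1 at -0.10. Cytosolic ribosomal proteins (75 of 76 at least 1 lower, median -2.08) and oxidative phosphorylation genes (70 of 96, median -1.71) stood on either side of the mitochondrial ribosome. No symbol of the mitochondrial genome itself was in the table used here, so the messages this ribosome translates were not measured.

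Per cell, the mean log2(TPM + 1) over the 77 members, called the score, was 2.10, 5.17 and 6.15 in GMP cells (lowest, median and highest) and 0.39, 3.30 and 5.21 in CD11b+ GMP-P cells. A GMP cell had a median of 66 members above 0 (26 to 74) and a CD11b+ GMP-P cell 50 (7 to 65). Their summed share of TPM had a median of 1.11% in GMP cells (0.593 to 1.51) and 0.693% in CD11b+ GMP-P cells (0.126 to 1.05). By score 18 of 47 CD11b+ GMP-P cells lay below every GMP cell, and by share of TPM 20 did. The rest overlapped with GMP. The mean log2(TPM + 1) over all genes compared was also lower. It was 1.66, 3.11 and 3.63 in GMP cells (lowest, median and highest) and 0.90, 2.29 and 3.28 in CD11b+ GMP-P cells. By this mean as well, part of the CD11b+ GMP-P cells lay below every GMP cell.

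Genes detected per cell moved with these values. The score followed the number of genes detected, with Pearson's r = 0.86 and Spearman's rho = 0.82 over 45 GMP cells and r = 0.95 and rho = 0.93 over 47 CD11b+ GMP-P cells; the cells of a gate share its date code, and the members are among the genes counted. Against the mean of all genes compared, the score stood 1.88 higher in a median GMP cell and 0.77 higher in a median CD11b+ GMP-P cell. When 15 pairs of cells, 1 from each gate, were matched to within 100 genes detected, 13 members lay at least 1 lower and 6 at least 1 higher, and the median was -0.26 while that of all genes was -0.05. Those pairs held 4 of the 21 cells with a Myelo state name. Without any Myelo cell 26 members lay at least 1 lower, with a median of -0.66. Without cells of under 3000 genes 46 did, with a median of -1.28. The share of all genes at least 1 lower in the pairs and in these subsets is not given here. The counts of members therefore have no background beside them. How far the depth of a cell makes up the difference was not tested.

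The state names of the deposited annotation divided the score more finely than the gates did. In GMP the median score was 5.64 in 5 MP cells, 5.28 in 24 Mono cells (3.52 to 6.15), 5.12 in 6 Gran-1 cells (2.22 to 5.31) and 4.79 in 3 cMoP cells. These 4 states overlapped. The 5 Multi-Lin cells had a lower median, 2.88 (2.10 to 3.93), beside a median of 3634 genes detected against 5623.5 in Mono cells. In CD11b+ GMP-P the median was 4.78 in 4 Gran-1 cells, 3.94 in 20 Gran-2 cells (2.03 to 5.04), 3.28 in 3 Myelo-1 cells and 1.48 in 15 Myelo-2 cells (0.393 to 2.27). The 3 Myelo-4 cells scored 0.456, 0.919 and 0.966, with 14, 14 and 16 members above 0. In the share of TPM the order of these 5 states was the same down to Myelo-2, with medians of 0.925%, 0.819%, 0.477% and 0.345%. The Myelo-4 cells (0.126%, 0.365% and 0.375%) fell among the Myelo-2 cells or below them. The 1 Multi-Lin cell of CD11b+ GMP-P scored 4.13, above the 5 Multi-Lin cells of GMP. The 1 Mono cell of CD11b+ GMP-P scored 4.06, inside the range of the Mono cells of GMP. GMP also held 2 Gran-2 cells, which scored 3.55 and 3.60, with shares of 0.593% and 0.831%. These values fell inside the span of that state in the other gate (scores 2.03 to 5.04, shares 0.563% to 1.02%). All 21 cells with a Myelo name came from CD11b+ GMP-P. How far the mix of states makes up the gate difference was not tested.

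**Figure D2:**
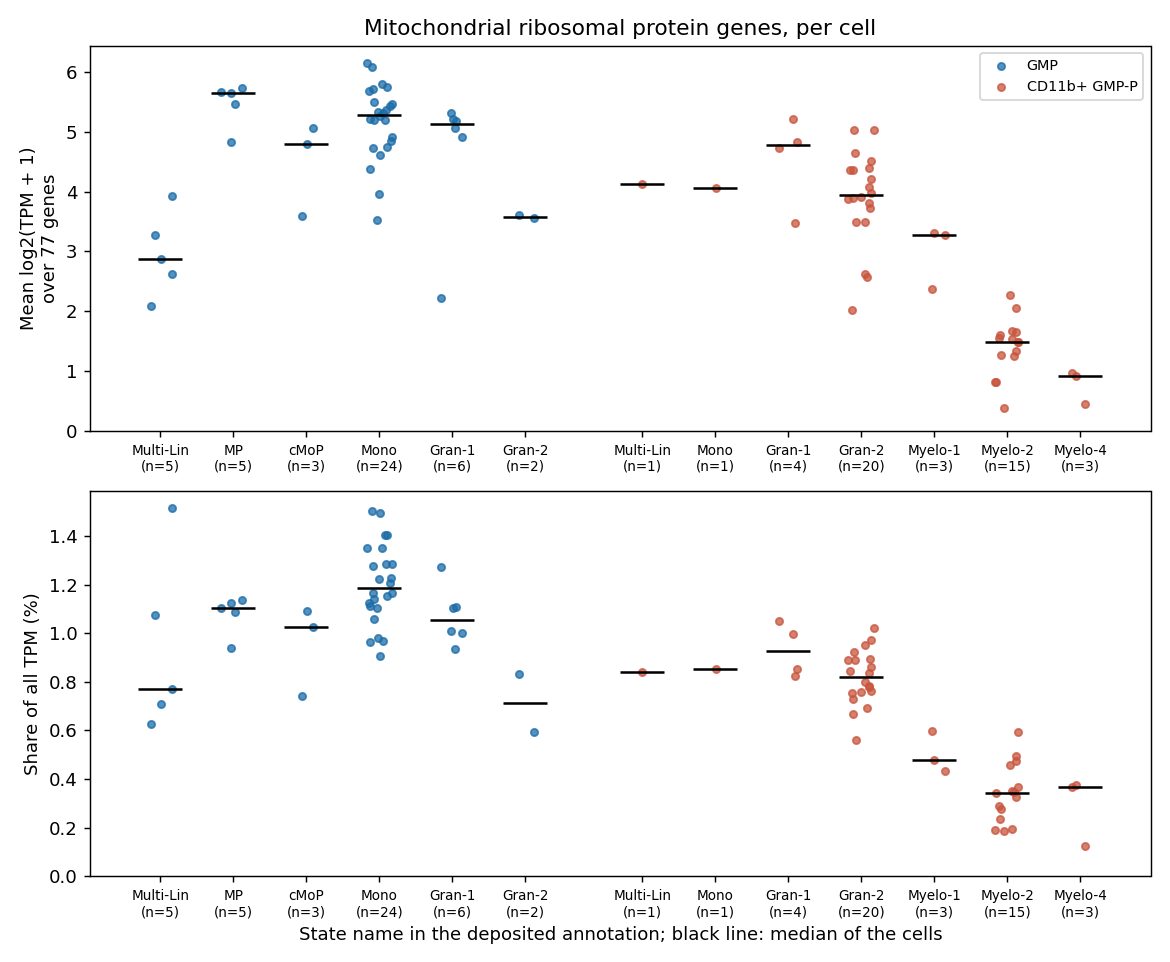
Mitochondrial ribosomal protein genes in each of the 92 cells (points), by gate (colour) and state name, as the mean log2(TPM + 1) over 77 genes (upper panel) and as the share of all TPM in percent (lower panel); black lines are medians. The Myelo-2 and Myelo-4 cells have the lowest medians in both panels, and the 5 Multi-Lin cells of GMP lie low by score but spread widely by share.

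Within the CD11b+ GMP-P gate the members were lower in Myelo-2 than in Gran-2 cells, the largest states of that gate. Of 75 members compared 65 lay at least 1 lower and 0 at least 1 higher, with a median of -2.43 (range -6.07 to 0.38). The background was also low: 51.2% of 7334 genes compared lay at least 1 lower and 2.62% at least 1 higher, with a median of -1.04, and among 1975 genes of like level 67.7% lay at least 1 lower and 2.68% at least 1 higher, with a median of -1.63. A Gran-2 cell had a median of 4595 genes detected and a Myelo-2 cell 2936, and granule genes took a median of 26.6% and 58.2% of all TPM. Their part in the difference was not tested. By score 13 of 15 Myelo-2 cells lay below every Gran-2 cell, and by share of TPM 14 of 15 did. The mean log2(TPM + 1) over all genes compared between the gates overlapped little as well. It was 1.67 to 3.28 in Gran-2 (median 2.60) and 0.93 to 1.83 in Myelo-2 cells (median 1.45). As a share of the TPM that granule genes left over, the members took a median of 1.09% in Gran-2 and 0.795% in Myelo-2 cells, and there 7 of 15 Myelo-2 cells lay below every Gran-2 cell and 1 lay above.

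Both subunits were lower in Myelo-2 cells, the large with 42 of 48 members at least 1 lower (median -2.41) and the small with 22 of 26 (median -2.45). Mrpl36 had the largest difference, -6.07. It was above 0 in 19 of 20 Gran-2 cells, with a median of 152 TPM and a highest value of 784, and in 1 of 15 Myelo-2 cells, at 30.4 TPM. Mrps28, of the small subunit, was above 0 in 16 Gran-2 cells (median 126 TPM) and in 2 Myelo-2 cells, where the highest value was 1.44 TPM, a difference of -5.67. Mrpl30 (18 and 4 cells, difference -5.06) and Mrps33 (19 and 5 cells, difference -4.79) came next. In contrast to these, Mrpl33 stayed above 0 in 14 of 15 Myelo-2 cells (median 348 TPM, against 610 TPM in Gran-2) and differed by -1.60. Mrpl39, a large subunit protein with no bacterial relative, was the single member with a positive difference, 0.38, from 9 Gran-2 and 5 Myelo-2 cells above 0. The members next to it, Mrps26 (-0.31), Mrps22 (-0.34) and Mrps10 (-0.52), were above 0 in 9 or fewer Gran-2 cells each. Of the 7334 genes compared between these states, 6265 had a difference below 0.

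Both the share of cells with a value and the level where there was one were compared. In Gran-2 a member was above 0 in a median of 75% of cells and in Myelo-2 in 26.7%, and 74 of 75 members were detected in a larger share of Gran-2 cells. Over all 7334 genes compared the medians were 55% and 26.7%, and 6209 (84.7%) were detected in a larger share of Gran-2 cells. Among the 50 members seen in at least 3 cells of both states, the median level where detected was 67.2 TPM in Gran-2 and 51.1 TPM in Myelo-2, and 32 of 50 (64%) were higher in Gran-2. The same share over all genes seen so was 63.9%. Taken per cell instead, the median TPM of the members above 0 was 59.8 in a median Gran-2 cell and 29.6 in a median Myelo-2 cell, and 9 of 15 Myelo-2 cells lay below every Gran-2 cell. Mrpl11, Mrpl47, Mrps2, Mrps27, Mrps31, Mrps35, Mrps5 and Mrps6 were listed at 0 in all 15 Myelo-2 cells. The limit that a count of 0 allows, taken as 3 of the 15 cells, is 20%. Mrpl47 was above 0 in only 4 Gran-2 cells and was not among the 75 compared. Such absence was not particular to the members: 68 of 75 members and 6765 of 7334 genes compared were above 0 in some cell of both states. Between the gates the median level of the members where detected was 70.9 TPM for GMP and 40.2 TPM for CD11b+ GMP-P, with 66 of 77 members higher in GMP (85.7%), against 60.9% of all genes seen in at least 3 cells of both gates.

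**Figure D3:**
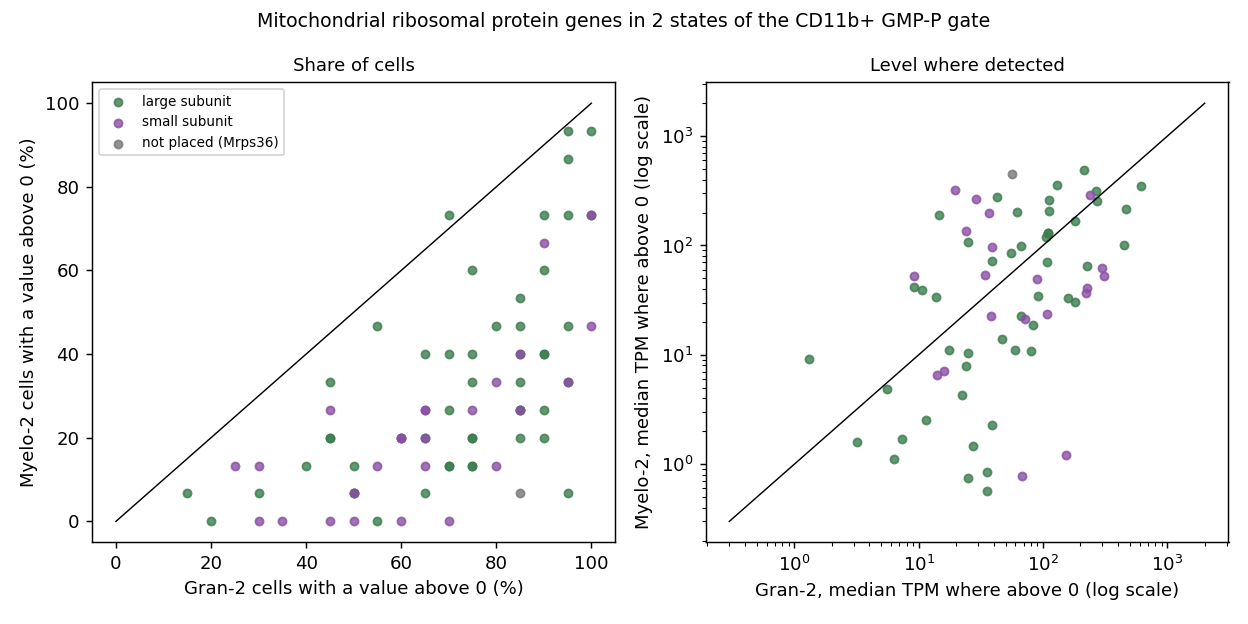
Each point is a mitochondrial ribosomal protein gene in Gran-2 (horizontal) and Myelo-2 cells (vertical) of the CD11b+ GMP-P gate, as the percent of cells with a value above 0 (left) and as the median TPM over the cells with one (right, log scales; genes above 0 in both states). On the left nearly all points lie below the line of equal values, while on the right they lie on both sides of it.

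The mitochondrial and the cytosolic ribosome did not keep 1 ratio over the states. Cytosolic ribosomal protein genes took a median of 10.9% of TPM in Gran-2 cells (8.31 to 14.3) and 2.50% in Myelo-2 cells (0.981 to 5.58), with no overlap and a ratio of medians of 4.37. The same ratio was 2.37 for the mitochondrial ribosome and 2.19 for oxidative phosphorylation genes. The cytosolic over mitochondrial TPM of a cell had a median of 13.6 in Gran-2 and 8.26 in Myelo-2 (4.42 to 18.4), and 10 of 15 Myelo-2 cells lay below every Gran-2 cell while 1 lay above. In the Myelo-4 cells it was 2.02, 3.06 and 7.33. Those cells had only 14 to 16 members above 0, so single genes can weigh on any ratio to the mitochondrial ribosome. The oxidative phosphorylation over mitochondrial ribosomal TPM had medians of 4.38 in Gran-2, 5.96 in Myelo-1 and 5.17 in Myelo-2, and was 2.11, 2.48 and 7.70 in the Myelo-4 cells. Its medians by gate were 3.98 (GMP) and 4.43 (CD11b+ GMP-P).

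At the other end stood the Multi-Lin and cMoP cells of GMP. Their cytosolic over mitochondrial ratio had a median of 26.3 in 5 Multi-Lin cells (12.7 to 32.4), and it was 19.7, 20.1 and 39.5 in the 3 cMoP cells. The 24 Mono cells ranged from 9.68 to 17.8, so 4 of 5 Multi-Lin and 3 of 3 cMoP cells lay above all of them, with 1 of 5 MP, 1 of 2 Gran-2 and 0 of 6 Gran-1 cells. The 1 Multi-Lin cell of CD11b+ GMP-P had a ratio of 25.6. These are few cells, and the difference between states was not tested.

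Over the 47 CD11b+ GMP-P cells the mitochondrial ribosomal share of TPM followed the cytosolic share (r = 0.86, rho = 0.84) and the oxidative phosphorylation share (r = 0.89, rho = 0.84), and it ran against the granule share (r = -0.87, rho = -0.82). Shares of 1 total are not independent, and the cells share a date code and a gradient of genes detected. Within single states the relation to the cytosolic share was looser, with r = 0.37 over 20 Gran-2 cells and r = 0.44 over 15 Myelo-2 cells. In GMP it was r = -0.29 over 45 cells. The large and small subunit shares of a cell had r = 0.59 over CD11b+ GMP-P and 0.25 over GMP cells.

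**Figure D4:**
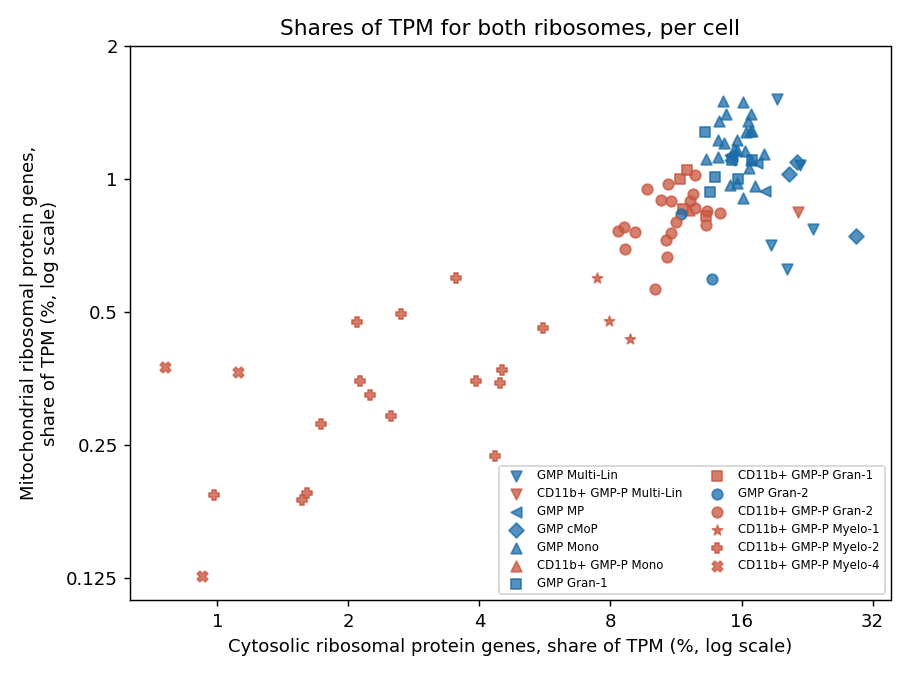
Share of TPM of the mitochondrial ribosomal protein genes (vertical, percent, log scale) against that of the cytosolic ribosomal protein genes (horizontal, percent, log scale) in each of the 92 cells, with the gate by colour and the state name by marker. The Myelo-2 and Myelo-4 cells lie at the lower left, and the cMoP and Multi-Lin cells of GMP lie to the right of the other GMP cells.

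Within GMP the Mono and Gran-1 cells, its largest states, differed little as a group. Of 77 members 28 lay at least 1 lower in Gran-1, 6 at least 1 higher and 43 within 1, with a median of -0.52 (range -3.14 to 2.39). Over 8601 genes compared 21% lay at least 1 lower and 13.8% at least 1 higher, with a median of -0.16, and of 1213 genes of like level 30.1% and 14.9%, with a median of -0.33. Cell 25, a Gran-1 cell with 2775 genes detected, weighed on this: without it 16 members lay at least 1 lower and 10 at least 1 higher, and the median was -0.02. Cytosolic ribosomal proteins differed by a median of -0.08, with 5 of 76 at least 1 lower.

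Single members still stood apart in both directions. Mrps12, at the decoding centre of the small subunit, had levels of 0, 141 and 642 TPM in Mono cells (23 of 24 above 0) and 0, 11.7 and 291 TPM in Gran-1 cells (3 of 6), a difference of -3.14, or -2.44 without cell 25. Mrpl34 differed by -2.91, Mrpl54 by -2.77 and Mrpl27 by -2.61. Mrps15, of the small subunit, was above 0 in 6 of 6 Gran-1 cells at 60.1, 137 and 360 TPM, and in 22 of 24 Mono cells at 0, 46.6 and 224 TPM, a difference of 2.39. Mrpl32, which is cut to its mature form by a mitochondrial inner membrane protease, had medians of 43.6 TPM in Mono and 154 TPM in Gran-1 cells and differed by 2.10. Mrps25 (1.51) and Mrps18c (1.39) were within 1 without cell 25, at 0.75 and 0.86. In each of these genes the ranges of both states overlapped.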

How the data were processed

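Per the labels' protocols, cDNA was made with a SMARTer kit and libraries with Nextera XT. The authors deposited log2 values of TPM plus 1 for 23956 symbols in 92 cells, and a table with the state name of each cell, 9 in all. Per the submitters' processing notes, Bowtie2, RSEM and build mm9 were used; the sources used here give neither versions nor how states were assigned. Promoter windows come from RefSeq on GRCm38.p6, a later build, matched by symbol. Depth is unknown from TPM, so its precision could not be given, and intervals on shares of cells cover counting error only.

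Per comparison, means of log2(TPM + 1) were subtracted for genes that 25% or more of the cells of a group held above 0, with a pseudocount of 1 and a size rule of 1 (Python 3.11.15, numpy 2.4.6, pandas 2.3.3, scipy 1.17.1). All cells were kept, and doublets were not called. The script was tested on simulated data. Named members were the 8 lowest and 6 highest by gate difference, the 6 highest by mean TPM, the 4 lowest and 4 highest of each state comparison, the Mrps18 paralogs, Mrps30 and Mrps36, with up to 3 of each other list by absolute gate difference and a few fixed regulators; a few genes so named are not reported here. The motif rule named the printed promoters. The remaining members named at 0 in Myelo-2, Mrpl53 and the values of Mrpl12 and Mrpl33 by state were chosen after their values were seen. Members and lists were chosen with earlier results of these data known. Alternatives changed the pseudocount, filter, scale, normalization and cells used.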

Additional observations from a re-analysis of the deposited data

Results flagged for a closer look

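In the 4 states of a gate with 4 to 10 cells, the highest and lowest cells were checked on 3 measures each, 12 checks in all, for a gap from the others that is large against the range. Chance alone meets such a check in about 1 in 20 groups, and the measures of a state are not independent. Cell 25 of the Gran-1 state in GMP had the lowest score of its group, 2.22, where the other 5 cells lay between 4.92 and 5.31. The same cell had the lowest cytosolic over mitochondrial ribosomal TPM, 10.3, against 13.8 to 15.7 in the others. Cell 10 of the MP state had the lowest share of TPM in mitochondrial ribosomal protein genes, 0.939%, against 1.09% to 1.14% in the other 4 cells.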

How the results depend on the processing

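The median of the members stayed below that of all genes compared under each alternative. The gap was 0.21 to 2.50 between the gates (main 1.08). It was 0.60 to 2.90 between Gran-2 and Myelo-2 (main 1.39), and 0.05 to 0.47 between Mono and Gran-1 (main 0.36). Genes of like level, the closer background, were not compared under the alternatives. Their medians in the main comparisons were -1.32, -1.63 and -0.33, nearer to those of the members. Counts and sizes moved more than this order, and the cause was not tested. The counts below are given without the share of all genes under the same alternative. In the main comparisons 39%, 51.2% and 21% of all genes compared lay at least 1 lower. Leaving out cell 25, cell 92 (a Gran-2 cell) or cells of under 3000 genes was chosen after seeing the data.

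Between the gates, 70 members lay at least 1 lower, against 38 with a pseudocount of 10, 32 from means of TPM, 13 from 15 pairs of cells matched on genes detected (with 6 at least 1 higher, against 0), 26 without Myelo cells and 46 without cells of under 3000 genes. The median of -1.81 became -2.57 and -0.99 with pseudocounts of 0.1 and 10, -0.87 from means of TPM, -2.79 from medians over cells, -1.51 with cells scaled to equal medians, -1.65 without granule TPM, -0.26 in matched pairs, -0.66 without Myelo cells and -1.28 without cells of under 3000 genes. The median of all genes was -0.74, or -0.54 with equal medians, and changes are best read relative to it. A change of sign was checked only in the named genes whose main difference was at least 1 in size. Of these, Mrpl33 (0.054), Mrpl18 (0.61), Mrps36 (0.033), Tufm (0.99) and Aurkaip1 (1.23) turned in matched pairs. Mrpl18 (0.0023) and Aurkaip1 (0.19) turned without Myelo cells, and Mrps18a (0.074) from means of TPM. The 6 members at least 1 higher in matched pairs are not among these genes.

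Between Gran-2 and Myelo-2, 65 lay at least 1 lower, against 43 with a pseudocount of 10, and 0 at least 1 higher, against 4 from means of TPM. The median of -2.43 became -3.80 and -1.25 with pseudocounts of 0.1 and 10, -2.71 with a 50% detection filter, -1.72 from means of TPM, -3.06 from medians, -2.04 with equal medians and -2.61 without cell 92. Only 2 pairs matched on genes detected could be formed, so that alternative was not run.

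Between Mono and Gran-1, 28 lay at least 1 lower, against 15 with a pseudocount of 10 and 16 without cell 25. At least 1 higher lay 6, against 13 and 3 with pseudocounts of 0.1 and 10, 12 in 5 matched pairs and 10 without cell 25. The median of -0.52 became -0.68 and -0.30 with those pseudocounts, -0.38 from means of TPM, -0.40 from medians, -0.40 in matched pairs and -0.020 without cell 25. No paired analysis was possible because the cells of the groups compared share no replicate numbers.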
